A study of Mus musculus with 43 samples.

Results

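The 10 genes described here, Nuak1, Ackr3, Adcy3, Kalrn, Muc3, B4galt4, Tmem236, Sytl2, Pdlim1 and Car8, are 10 of 52636 genes in the organoid table. They were selected on their measured values in vehicle, where tumoroids and colonoids differed. The vehicle values are therefore a description, and the question was whether the difference between genotypes was also present under each drug. Colonoids came from the colon epithelium of adult VilCreERT2/Apc wt/wt mice and tumoroids from adult VilCreERT2/Apc flox/flox mice, in which tamoxifen-activated Cre under the villin promoter deletes Apc in epithelial cells. All mice carried VilCreERT2 and were injected with tamoxifen, and all cultures received Wnt3a, R-spondin 1, EGF and Noggin. The 3 colonoid lines (M41, M40 and M1) and the 3 tumoroid lines (F11, M3 and M14) each came from 1 mouse. The colonoid mice were male and, among the tumoroid mice, F11 was female. Every line was cultured for 6 days with vehicle (Ve, DMSO), 4 µM regorafenib (R4), 8 µM regorafenib (R8) or 1 µM 5-FU, which gave 24 bulk RNA libraries in 8 groups of 3. A separate table held 19 libraries of colon fibroblasts from wild-type C57BL/6 mice, grown for 7 days with vehicle, 4 µM or 10 µM regorafenib, 1 µM autogramin-2, or 4 µM regorafenib with 1 µM autogramin-2. Regorafenib is a multi-kinase inhibitor, and 5-FU (fluorouracil) is an antimetabolite that blocks thymidylate synthesis.

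Apc is part of the complex that marks β-catenin for degradation. When Apc is lost, β-catenin accumulates and, with TCF/LEF factors, drives Wnt target genes that keep crypt cells in a stem or progenitor state. Colonoids with intact Apc retain some of the differentiated cells of the colon, among them goblet cells, which secrete mucus, and absorptive colonocytes. The 10 genes cover different roles. Ackr3 (CXCR7) is an atypical receptor that binds and removes the chemokine CXCL12, Adcy3 is a membrane adenylyl cyclase that makes cAMP, and Nuak1 is an AMPK-related kinase activated by LKB1. Kalrn (kalirin) is an exchange factor for Rac and RhoG, Muc3 is a membrane mucin of the apical surface, and B4galt4 is a Golgi enzyme that adds galactose to glycans. Sytl2 is a Rab27 effector that docks vesicles at the plasma membrane, Pdlim1 is a PDZ-LIM protein of actin fibres, and Car8 is a carbonic anhydrase-related protein without catalytic activity. Tmem236 is named as a transmembrane protein.

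Values are CP20M, read counts per gene scaled by the authors to 20000000 per library and rounded up, so that 20 CP20M is 1 CPM. They are not divided by transcript length. The colonoid R4 library of line M41 held about 513000 reads, where 1 read is 39.0 CP20M and a value of 0 allows up to 117 CP20M (3 reads). In the other organoid libraries 1 read was at most 4.57 CP20M, with 3 libraries in which it could not be resolved. Apc itself was at 1542 to 4944 CP20M in the 12 colonoid libraries and 3813 to 6032 CP20M in the 12 tumoroid libraries, counts that cover all exons and so do not check the deletion. The summed level of 8 Wnt target and stem cell markers separated the genotypes in every library, with 3243 to 9811 CP20M in colonoids and 12398 to 22793 CP20M in tumoroids. Epithelial markers (8 genes) summed to at least 106355 CP20M in every organoid library, whereas 8 fibroblast markers summed to at most 123 CP20M, with Lum at 0 in every library of all 8 groups. Immune markers (6 genes) summed to 353 to 625 CP20M and endothelial markers (4 genes) to at most 79 CP20M. In bulk RNA, fewer cells of a type and less RNA per cell cannot be told apart.

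The sequences upstream of 4 of the genes are shown, 2 that were higher and 2 that were lower in tumoroids in vehicle, because the results turn on this division. Positions here and for the genes are on GRCm38. They are the 250 bases before the RefSeq transcription start on GRCm38.p6, written 5′ to 3′ on the strand of the gene. Windows were at hand for 8 of the 10 genes. Nuak1 and Ackr3 were the higher genes, and B4galt4 and Tmem236 the lower.
Nuak1 (chr10:84440669-84440918, minus strand): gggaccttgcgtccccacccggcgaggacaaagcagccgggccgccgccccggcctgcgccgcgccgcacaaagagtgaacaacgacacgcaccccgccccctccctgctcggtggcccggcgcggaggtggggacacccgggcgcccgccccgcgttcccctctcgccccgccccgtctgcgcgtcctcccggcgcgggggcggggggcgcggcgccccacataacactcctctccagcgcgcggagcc
Ackr3 (chr1:90203730-90203979, plus strand): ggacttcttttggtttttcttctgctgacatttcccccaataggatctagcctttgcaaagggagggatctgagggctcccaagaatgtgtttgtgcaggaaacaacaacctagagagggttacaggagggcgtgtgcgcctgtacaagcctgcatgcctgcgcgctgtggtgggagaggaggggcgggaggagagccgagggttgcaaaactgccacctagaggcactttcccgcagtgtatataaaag
B4galt4 (chr16:38742009-38742258, plus strand): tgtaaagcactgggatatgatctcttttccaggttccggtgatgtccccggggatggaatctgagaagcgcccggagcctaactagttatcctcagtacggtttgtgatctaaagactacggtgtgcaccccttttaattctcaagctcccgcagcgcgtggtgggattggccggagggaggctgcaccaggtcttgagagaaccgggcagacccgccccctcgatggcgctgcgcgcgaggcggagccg
Tmem236 (chr2:14174274-14174523, plus strand): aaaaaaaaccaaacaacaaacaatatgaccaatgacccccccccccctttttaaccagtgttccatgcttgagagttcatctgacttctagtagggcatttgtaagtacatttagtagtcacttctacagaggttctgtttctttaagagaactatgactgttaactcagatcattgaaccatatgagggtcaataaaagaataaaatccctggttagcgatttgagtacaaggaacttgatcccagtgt
The Nuak1 window partly overlaps an exon of Gm47962. It was 79.2% G or C with 38 CpG, the B4galt4 window 59.2% with 19 CpG and the Ackr3 window 54.0% with 7 CpG. The Tmem236 window was 38.4% with 1 CpG, against a median of 52.4% and 6.00 CpG over all 32851 windows. A TCF/LEF motif (CTTTGAT, or ATCAAAG on the other strand) was found in 3.21% of all windows and an HNF4 motif (CAAAGTC, or GACTTTG) in 3.84%. Among the members, Adcy3 alone held a match, a TCF/LEF motif 216 to 210 bases before its start, in a window that lies within an exon of another Adcy3 transcript and is not printed. The letters of either motif were absent from the 4 windows shown.

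The gap between genotypes is given as the tumoroid mean minus the colonoid mean of log2(CP20M + 20). It was tested under each drug with limma on the 18 drug-treated libraries, so that the vehicle libraries that chose the genes took no part, although the lines are the same. The 3 genes that were higher in tumoroids in vehicle were higher under every drug, with gaps of 2.11 to 2.56 under R4, 1.85 to 2.30 under R8 and 2.18 to 3.26 under 5-FU. Groups did not overlap in vehicle for 15.94% of the 11562 genes with tumoroids above and for 10.66% with tumoroids below. No tumoroid library overlapped the colonoid libraries for these 3 genes in any treatment, a separation that 14.11% of the genes tested showed in this direction under R4, 18.1% under R8 and 8.66% under 5-FU. For Ackr3 under R4 the separation is not established for the shallow M41 library, whose 0 allows more than the 92 CP20M of tumoroid line F11, and without that library the groups were apart. Of the 7 genes that were lower in tumoroids in vehicle, 6 were without overlap under R4 and R8 and 7 under 5-FU. The background for this direction was 3.99% under R4, 6.25% under R8 and 6.95% under 5-FU. Ackr3 and Adcy3 reached the level required for testing only in tumoroids, and Kalrn, Muc3, B4galt4 and Tmem236 only in colonoids. For these genes the separation beside the share of all genes is a description. On the log2(CP20M + 20) scale the gaps of the 7 lower genes were smaller in size than in vehicle under every drug. Their median was −3.24 in vehicle, −1.22 under R4, −1.26 under R8 and −2.35 under 5-FU. The added 20 CP20M compresses genes near 0, and by the fold of group means 2 of these gaps were not smaller. Muc3 was 72.1 times higher in colonoids in vehicle and 99.6 times under R4, where the tumoroid mean was 1.67 CP20M, and B4galt4 was 16.7 times higher in vehicle and 17.5 times under 5-FU. Because the vehicle gap chose the genes, the difference from vehicle is given without a test.

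**Figure D1:**
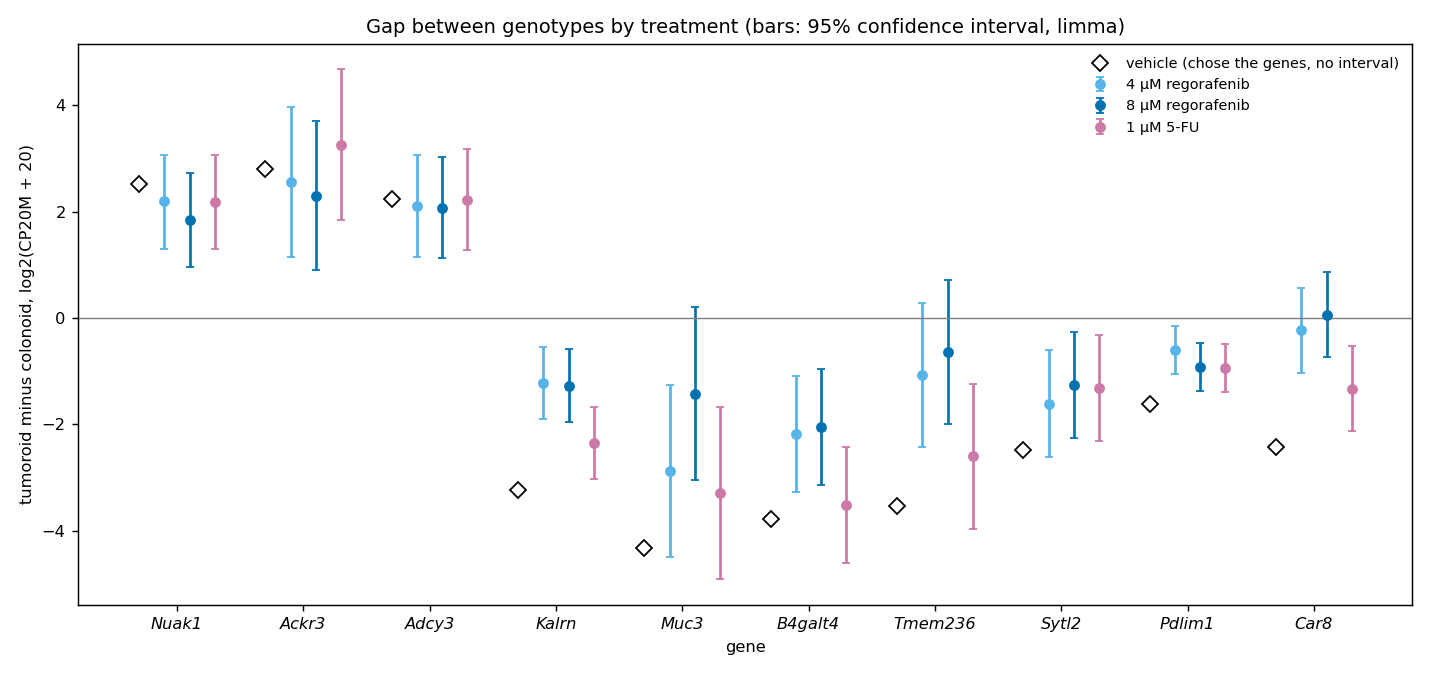
Gap between tumoroids and colonoids on the log2(CP20M + 20) scale for each gene. Open diamonds are the vehicle gaps that chose the genes, and circles with bars are limma estimates under each drug with 95% confidence intervals (n = 3 lines per group). Nuak1, Ackr3 and Adcy3 stay above 0 in all treatments, and the intervals include 0 for Car8 and Tmem236 under both regorafenib doses and for Muc3 under R8.

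The call required an adjusted p under 0.05 together with a gap of at least 1 in size. None of the 10 genes was called under R4 or R8, where 0.156% and 0.164% of all genes were. B4galt4 and Kalrn were called under 5-FU, both lower in tumoroids, where 0.0605% of all genes were lower. Both entered the test only through colonoids, with 10 colonoid libraries at 200 CP20M or more for B4galt4, 7 for Kalrn and no tumoroid library for either, so that a low tumoroid level was built into their entry. In numbers of genes, limma called 18 under R4, 19 under R8 and 9 under 5-FU, and with TMM scaling factors 11, 20 and 5. The calls under R4 divided into 15 higher and 3 lower in tumoroids, or 83.3% higher, and with TMM factors into 8 and 3, or 72.7% higher. At an unadjusted p under 0.05, all 3 higher genes passed under each drug, as did 13.4% of all genes in this direction under R4, 6.41% under R8 and 3.76% under 5-FU. Of the 7 lower genes 5 passed under R4, 4 under R8 and 7 under 5-FU, beside 2.86%, 2.56% and 2.33% of all genes. Ackr3 and Adcy3 entered the test only through tumoroids, with 6 and 7 tumoroid libraries at 200 CP20M or more and no colonoid library. Muc3 and Tmem236 entered only through colonoids, with 7 and 5 colonoid libraries and no tumoroid library. Passes of these genes, and their calls under other settings, are therefore a description. Libraries of the same line deviated together, and with line as a replicate block limma called 29 genes under R4, among them Nuak1 and Adcy3, and 15 under 5-FU, among them Nuak1, Adcy3, B4galt4 and Kalrn. Under R8 the block gave 26 genes with Adcy3 among them. The fit with the block, like the main fit, counts more units than there are mice. Under R4 the median gap of all genes was 0.24, and 0.04 with TMM factors or 0.02 without the M41 library of about 513000 reads, so that R4 gaps are to be read against that shift. Without that library 10 genes were called under R4 with none of the members, and 66 under R8, among them Nuak1 (adjusted p = 0.0464) and Adcy3 (adjusted p = 0.0414).

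**Figure D2:**
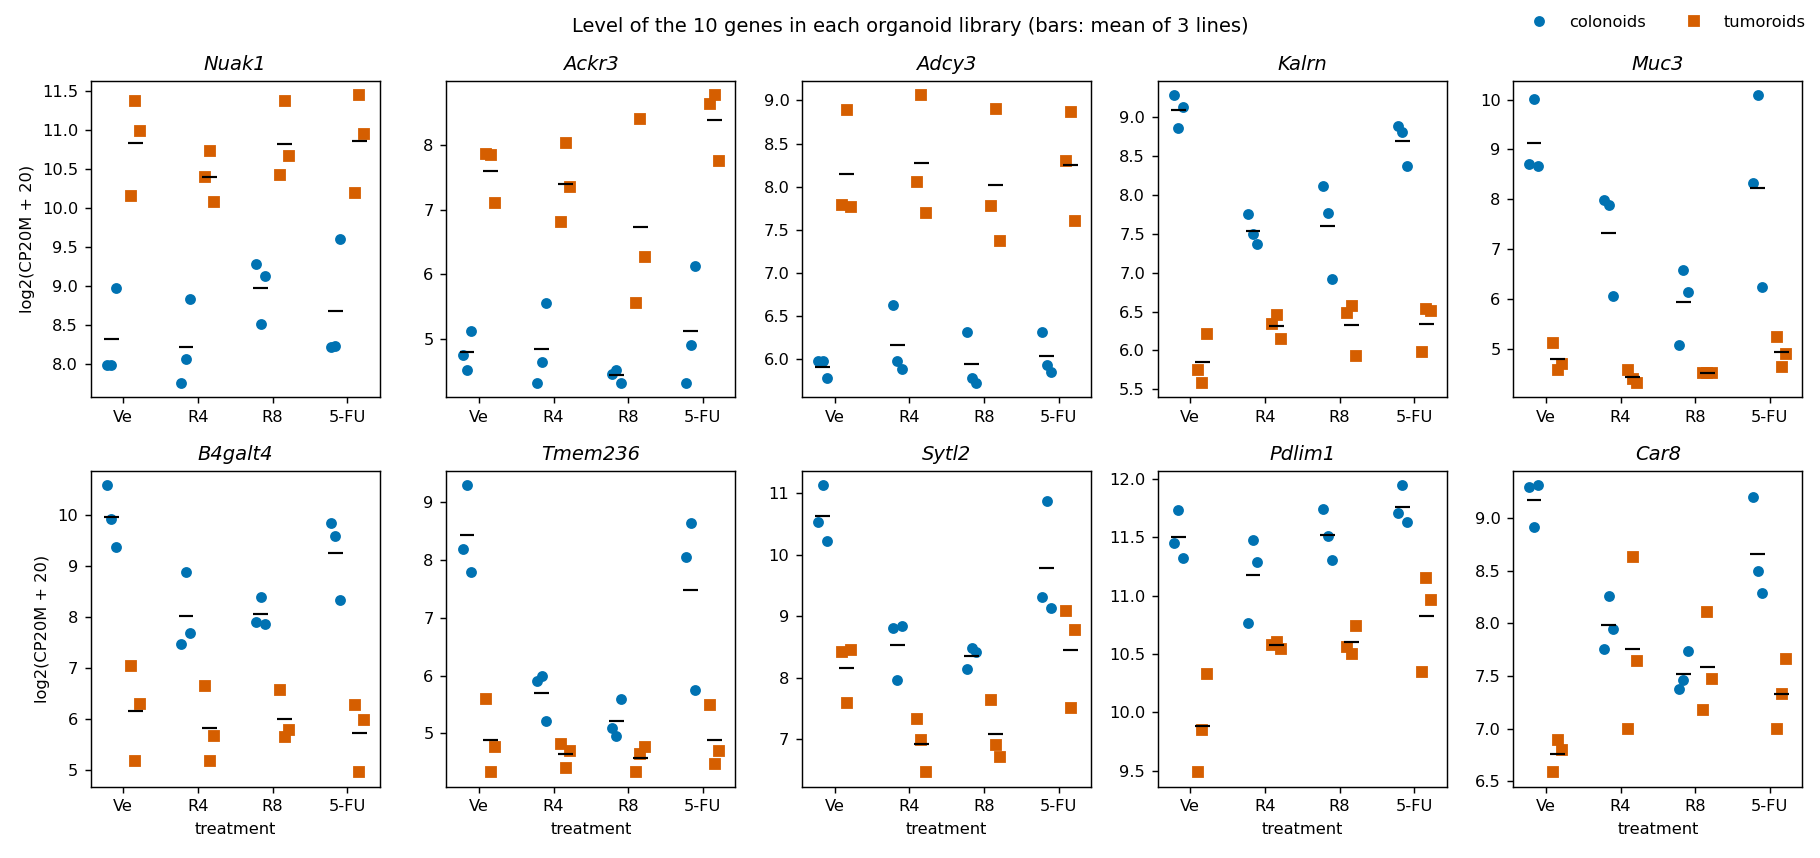
Level of each gene, as log2(CP20M + 20), in the 24 organoid libraries by treatment (Ve vehicle, R4 and R8 regorafenib, 5-FU). Points are single lines, short bars are means of 3 lines, and the vertical axes differ between panels. The 2 colours do not overlap for Nuak1, Ackr3 and Adcy3 in any treatment, although for Ackr3 under R4 the M41 library at 0 allows up to 117 CP20M, and they overlap for Car8 under R4 and R8.

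Ackr3 (ENSMUSG00000044337, chr1:90203980-90216751, plus strand), the CXCL12-binding receptor, was listed at 0 to 50 CP20M in the colonoid libraries and 27 to 416 CP20M in the tumoroid libraries. In vehicle, Ackr3 was at 7, 3 and 15 CP20M in colonoid lines M41, M40 and M1, and at 212, 211 and 117 CP20M in tumoroid lines F11, M3 and M14. Under R4, Ackr3 was at 0, 5 and 27 CP20M in colonoids and 92, 242 and 144 CP20M in tumoroids, the 0 being that of the shallow M41 library, where it allows up to 117 CP20M. Tumoroids were above colonoids in both treatments, and line M3 held the highest value under R4. Under R8, Ackr3 was at 2, 3 and 0 CP20M in colonoids and 27, 317 and 57 CP20M in tumoroids. Under 5-FU, Ackr3 was at 0, 10 and 50 CP20M in colonoids and 376, 416 and 195 CP20M in tumoroids. The tumoroid lines were spread most under R8, where M3 was far above F11 and M14, and all 3 tumoroid lines were higher under 5-FU than in vehicle. The gap was 2.80 in vehicle, 2.56 (SE 0.66, limma adjusted p = 0.179) under R4, 2.30 (SE 0.66, limma adjusted p = 0.250) under R8 and 3.26 (SE 0.66, limma adjusted p = 0.104) under 5-FU. On this scale the added 20 CP20M holds down the gap of a gene that is near 0 in colonoids.

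Adcy3 (ENSMUSG00000020654, chr12:4133103-4213525, plus strand), which makes cAMP, was higher in tumoroids in every treatment, with gaps of 2.07 to 2.24. In vehicle, Adcy3 was at 43, 43 and 35 CP20M in colonoids and 201, 455 and 198 CP20M in tumoroids. Under R4, Adcy3 was at 79, 43 and 39 CP20M in colonoids and 246, 513 and 187 CP20M in tumoroids. Line M3 stood above the other two tumoroid lines in both. Under R8, Adcy3 was at 60, 35 and 33 CP20M in colonoids and 199, 459 and 145 CP20M in tumoroids. Under 5-FU, Adcy3 was at 60, 41 and 38 CP20M in colonoids and 295, 446 and 175 CP20M in tumoroids. M3 was again the highest, and the lowest tumoroid library of each treatment lay above the highest colonoid library. The gap was 2.24 in vehicle and 2.11 (SE 0.45) under R4, 2.07 (SE 0.45) under R8 and 2.22 (SE 0.45) under 5-FU, or 92.6% to 99.2% of the vehicle gap. By limma the adjusted p was 0.0883, 0.109 and 0.104, and with line as a replicate block 0.0362, 0.0394 and 0.0483, so that it passed under each drug with the block and not without it. The gene was also called with all 24 libraries under R4 (0.0375) and 5-FU (0.0448), and under R8 without the shallow library (0.0414). The 24 libraries include the vehicle libraries that chose it. It entered the test only through tumoroids, so all these calls are a description. Adcy3 shares 1380 exon bases with Cenpo on the opposite strand, a gene with a median of 268 CP20M in these libraries, and whether reads were counted by strand is not settled by the sources used here.

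Nuak1 (ENSMUSG00000020032, chr10:84370905-84440597, minus strand), the LKB1-activated kinase, was present in both genotypes and 3.76 to 6.07 times higher in tumoroids by group means. In vehicle, Nuak1 was at 234, 233 and 481 CP20M in colonoids and 1119, 2621 and 2016 CP20M in tumoroids. Under R4, Nuak1 was at 196, 246 and 436 CP20M in colonoids and 1330, 1674 and 1060 CP20M in tumoroids. Colonoid line M1 was the highest colonoid line in both, and still under the lowest tumoroid line. Under R8, Nuak1 was at 602, 346 and 540 CP20M in colonoids and 1352, 2628 and 1613 CP20M in tumoroids. Under 5-FU, Nuak1 was at 277, 280 and 757 CP20M in colonoids and 1150, 2768 and 1959 CP20M in tumoroids. All 3 colonoid lines were above their own vehicle level under R8 and under 5-FU, by 0.66 ± 0.58 and 0.37 ± 0.23 on the log2 scale (mean ± SD of lines). The gap was 2.52 in vehicle, 2.19 (SE 0.42, limma adjusted p = 0.0521) under R4, 1.85 (SE 0.42, limma adjusted p = 0.120) under R8 and 2.18 (SE 0.42, limma adjusted p = 0.0763) under 5-FU. With line as a replicate block the adjusted p was 0.0293 under R4, 0.0719 under R8 and 0.0483 under 5-FU. The fit with the block still counts more units than there are mice. Without colonoid line M1, and without the block, the adjusted p was 0.0111 under R4 and 0.00888 under 5-FU.

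Kalrn (ENSMUSG00000061751, chr16:33969073-34573532, minus strand), the Rac exchange factor, was lower in tumoroids than in colonoids in every treatment, and every colonoid line was below its vehicle level under each drug. In vehicle, Kalrn was at 601, 446 and 540 CP20M in colonoids and 34, 28 and 54 CP20M in tumoroids. Under R4, Kalrn was at 196, 161 and 145 CP20M in colonoids and 61, 68 and 51 CP20M in tumoroids. Every colonoid line was below its vehicle level, with a mean difference of −1.55 ± 0.20 on the log2 scale, and the groups did not overlap. Under R8, Kalrn was at 257, 197 and 101 CP20M in colonoids and 69, 75 and 41 CP20M in tumoroids. Under 5-FU, Kalrn was at 454, 427 and 312 CP20M in colonoids and 43, 73 and 71 CP20M in tumoroids. Colonoids under 5-FU thus stood between those in vehicle and those under regorafenib. The gap was −3.24 in vehicle, −1.22 (SE 0.32, limma adjusted p = 0.179) under R4 and −1.27 (SE 0.32, limma adjusted p = 0.159) under R8. Under 5-FU it was −2.35 (SE 0.32, limma adjusted p = 0.00793), a call that is a description because Kalrn entered the test only through colonoids. That call was lost without colonoid line M40 (adjusted p = 0.107), or without tumoroid line F11 (0.0552), M3 (0.0846) or M14 (0.0786), and with the 6 libraries of 5-FU alone (0.114).

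Muc3 (ENSMUSG00000037390, chr5:137134922-137149322, minus strand), the apical membrane mucin, had the largest vehicle gap of the 10 and was near 0 in tumoroids throughout. In vehicle, Muc3 was at 398, 1017 and 387 CP20M in colonoids and 15, 4 and 6 CP20M in tumoroids. Under R4, Muc3 was at 235, 216 and 47 CP20M in colonoids and 4, 1 and 0 CP20M in tumoroids. Colonoid line M1 was the lowest colonoid line in both. Under R8, Muc3 was at 14, 76 and 51 CP20M in colonoids and 3 CP20M in each tumoroid line. Under 5-FU, Muc3 was at 301, 1064 and 56 CP20M in colonoids and 18, 5 and 10 CP20M in tumoroids. Lines M41 and M40 kept a high level under 5-FU, line M1 did not, and all colonoid lines were low under R8. The gap was −4.33 in vehicle, −2.88 (SE 0.76, limma adjusted p = 0.179) under R4, −1.42 (SE 0.76, limma adjusted p = 0.630) under R8 and −3.29 (SE 0.76, limma adjusted p = 0.165) under 5-FU. The added 20 CP20M holds these gaps down, and with 5 CP20M added they were −4.44 under R4, −2.47 under R8 and −4.17 under 5-FU. Without colonoid line M1 and with 20 CP20M the gap was −3.51 (adjusted p = 0.0178) under R4 and −4.27 (adjusted p = 0.00592) under 5-FU. Muc3 lies among related mucin genes, and how reads that match several of them were counted is not given in the sources used here.

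B4galt4 (ENSMUSG00000022793, chr16:38742264-38769049, plus strand), the galactosyltransferase, was lower in tumoroids in every treatment without overlap. In vehicle, B4galt4 was at 1509, 940 and 636 CP20M in colonoids and 111, 16 and 58 CP20M in tumoroids. Under R4, B4galt4 was at 157, 449 and 185 CP20M in colonoids and 80, 16 and 31 CP20M in tumoroids. Among tumoroids M3 was the lowest and F11 the highest in both. The 157 CP20M of colonoid line M41 under R4 stands for few reads, since 1 read there is 39.0 CP20M. Without that library the R4 groups were also apart, with a gap of −2.45. Under R8, B4galt4 was at 219, 316 and 211 CP20M in colonoids and 75, 30 and 35 CP20M in tumoroids. Under 5-FU, B4galt4 was at 888, 751 and 302 CP20M in colonoids and 57, 11 and 43 CP20M in tumoroids. Colonoids were lowest under the 2 regorafenib doses, and the tumoroid order of lines, with F11 at the top, held in all treatments. The gap was −3.78 in vehicle, −2.18 (SE 0.51, limma adjusted p = 0.137) under R4 and −2.05 (SE 0.51, limma adjusted p = 0.159) under R8. Under 5-FU it was −3.52 (SE 0.51, limma adjusted p = 0.0141), a call that is a description because B4galt4 entered the test only through colonoids. That call was lost without colonoid line M41 (adjusted p = 0.106) or M40 (0.0897), without tumoroid line M3 (0.164) or M14 (0.130), and with the 6 libraries of 5-FU alone (0.246).

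Tmem236 (ENSMUSG00000061531, chr2:14174523-14221993, plus strand) was low in both genotypes under regorafenib, with colonoid means 6.73 times those of tumoroids under R4 and 4.42 times under R8, and 31.0 times in vehicle. In vehicle, Tmem236 was at 274, 610 and 202 CP20M in colonoids and 28, 0 and 7 CP20M in tumoroids. Under R4, Tmem236 was at 40, 44 and 17 CP20M in colonoids and 8, 1 and 6 CP20M in tumoroids. The 40 CP20M of line M41 is about 1 read. Under R8, Tmem236 was at 14, 11 and 28 CP20M in colonoids and 0, 5 and 7 CP20M in tumoroids. Under 5-FU, Tmem236 was at 245, 381 and 34 CP20M in colonoids and 25, 2 and 6 CP20M in tumoroids. As with Muc3, colonoid lines M41 and M40 stayed high under 5-FU and line M1 was low. The gap was −3.54 in vehicle, −1.07 (SE 0.64, 95% interval −2.43 to 0.28) under R4, −0.64 (SE 0.64, 95% interval −1.99 to 0.72) under R8 and −2.60 (SE 0.64, 95% interval −3.96 to −1.24) under 5-FU. With 5 CP20M added in place of 20, it was −1.94 under R4, −1.35 under R8 and −3.56 under 5-FU. By limma with 20 CP20M the adjusted p was 0.358, 0.890 and 0.214, and without colonoid line M1 it was 0.00888 under 5-FU.

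Sytl2 (ENSMUSG00000030616, chr7:90302252-90410719, plus strand), the Rab27 effector, was lower under regorafenib in all 6 lines. In vehicle, Sytl2 was at 1460, 2224 and 1173 CP20M in colonoids and 320, 173 and 330 CP20M in tumoroids. Under R4, Sytl2 was at 430, 230 and 436 CP20M in colonoids and 140, 107 and 68 CP20M in tumoroids. Groups were apart in both treatments, at lower levels under R4. Under R8, Sytl2 was at 263, 336 and 321 CP20M in colonoids and 178, 100 and 85 CP20M in tumoroids. Under 5-FU, Sytl2 was at 615, 1860 and 544 CP20M in colonoids and 521, 162 and 418 CP20M in tumoroids. Only a small margin lay between colonoid line M1 and tumoroid line F11 under 5-FU. The gap was −2.48 in vehicle, −1.61 (SE 0.47, limma adjusted p = 0.226) under R4, −1.26 (SE 0.47, limma adjusted p = 0.425) under R8 and −1.32 (SE 0.47, limma adjusted p = 0.611) under 5-FU.

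Pdlim1 (ENSMUSG00000055044, chr19:40221173-40271842, minus strand), of actin fibres, was well expressed in both genotypes and had the smallest vehicle gap. In vehicle, Pdlim1 was at 2771, 3386 and 2538 CP20M in colonoids and 696, 900 and 1264 CP20M in tumoroids. Under R4, Pdlim1 was at 1717, 2835 and 2480 CP20M in colonoids and 1510, 1532 and 1471 CP20M in tumoroids. Every tumoroid line was above its vehicle level and every colonoid line below it. Under R8, Pdlim1 was at 3407, 2899 and 2512 CP20M in colonoids and 1489, 1423 and 1692 CP20M in tumoroids. Under 5-FU, Pdlim1 was at 3317, 3928 and 3155 CP20M in colonoids and 1284, 2256 and 1978 CP20M in tumoroids. The tumoroid lines were above vehicle under both of these drugs too, by 0.71 ± 0.33 under R8 and 0.94 ± 0.34 under 5-FU on the log2 scale. The gap was −1.62 in vehicle, −0.60 (SE 0.21, limma adjusted p = 0.266) under R4, −0.92 (SE 0.21, limma adjusted p = 0.121) under R8 and −0.94 (SE 0.21, limma adjusted p = 0.165) under 5-FU, all under the fold threshold. Without the M41 R4 library the R4 gap was −0.81.

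Car8 (ENSMUSG00000041261, chr4:8143362-8239041, minus strand), the inactive relative of the carbonic anhydrases, was the member whose groups overlapped under both regorafenib doses. In vehicle, Car8 was at 607, 464 and 616 CP20M in colonoids and 76, 99 and 91 CP20M in tumoroids. Under R4, Car8 was at 196, 286 and 226 CP20M in colonoids and 108, 377 and 180 CP20M in tumoroids. The groups overlapped, and tumoroid line M3 held the highest value of the 6. Under R8, Car8 was at 146, 156 and 193 CP20M in colonoids and 125, 256 and 157 CP20M in tumoroids. Under 5-FU, Car8 was at 567, 341 and 292 CP20M in colonoids and 108, 141 and 183 CP20M in tumoroids. The groups overlapped under R8 and were apart again under 5-FU. The gap was −2.42 in vehicle, −0.23 (SE 0.38, 95% interval −1.03 to 0.57) under R4, 0.06 (SE 0.38, 95% interval −0.74 to 0.86) under R8 and −1.33 (SE 0.38, 95% interval −2.13 to −0.53) under 5-FU. By limma the adjusted p was 0.724, 0.995 and 0.366. The sign turned under R4 without tumoroid line F11 (0.15), and under R8 without tumoroid line M3 (−0.20), without colonoid line M41 (−0.01) and with TMM factors (−0.02).

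Whether the gap differed between drugs was tested on the same 18 libraries, without the vehicle values. No gene of the 11562 passed an FDR of 0.05 by limma for R8 minus R4 (113 genes, 0.977%, at an unadjusted p under 0.05) or for 5-FU minus the mean of R4 and R8 (125 genes, 1.08%), and with line as a replicate block none passed either. For R8 minus R4 the members' differences ran from −0.34 (95% interval −1.59 to 0.91, Nuak1) to 1.46 (95% interval −0.83 to 3.76, Muc3), and 0 of 10 had an unadjusted p under 0.05. For 5-FU minus regorafenib 4 of the 10 did, all with a wider gap under 5-FU. These were Kalrn at −1.10 (95% interval −1.93 to −0.27), Car8 at −1.25 (−2.22 to −0.27), B4galt4 at −1.40 (−2.74 to −0.07) and Tmem236 at −1.75 (−3.41 to −0.08), each with a limma adjusted p of 1.000. Kalrn, B4galt4 and Tmem236 entered the test only through colonoids, so their values here are a description. The 1.08% counts genes in either direction. For Nuak1, Ackr3 and Adcy3 the differences were 0.16 (−0.92 to 1.25), 0.83 (−0.89 to 2.56) and 0.13 (−1.04 to 1.30). Of these, Ackr3 and Adcy3 entered only through tumoroids.

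The response to each drug averaged over both genotypes uses the vehicle libraries that chose the genes, so its values are a description and nothing is read from the counts of calls. Sytl2 was lower under regorafenib, with a mean log2 difference from vehicle of −1.66 (SE 0.32) under R4 and −1.68 (SE 0.32) under R8, and both genotypes took part in it. Tmem236 differed by −1.49 (SE 0.44) and −1.77 (SE 0.44), B4galt4 by −1.14 (SE 0.38) and −1.03 (SE 0.38) and Muc3 by −1.09 (SE 0.50) and −1.74 (SE 0.50), and these means came mostly from colonoids. Pdlim1 differed by 0.60 (SE 0.16) under 5-FU. For Nuak1, Ackr3 and Adcy3 the mean differences ran from −0.62 (Ackr3 under R8) to 0.55 (Ackr3 under 5-FU), and all their 95% intervals included 0. The median of all genes was −0.16 under R4, −0.05 under R8 and −0.01 under 5-FU. With an adjusted p under 0.05 and a change of at least 1.5-fold, limma called 3 of the 10 as lower under R4 beside 9.15% of all genes, 3 as lower under R8 beside 8.87%, and 1 as higher under 5-FU beside 1.53%. With line as a replicate block 4, 4 and 1 were called, and the genes called under 5-FU were 584 in place of 272.

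**Figure D3:**
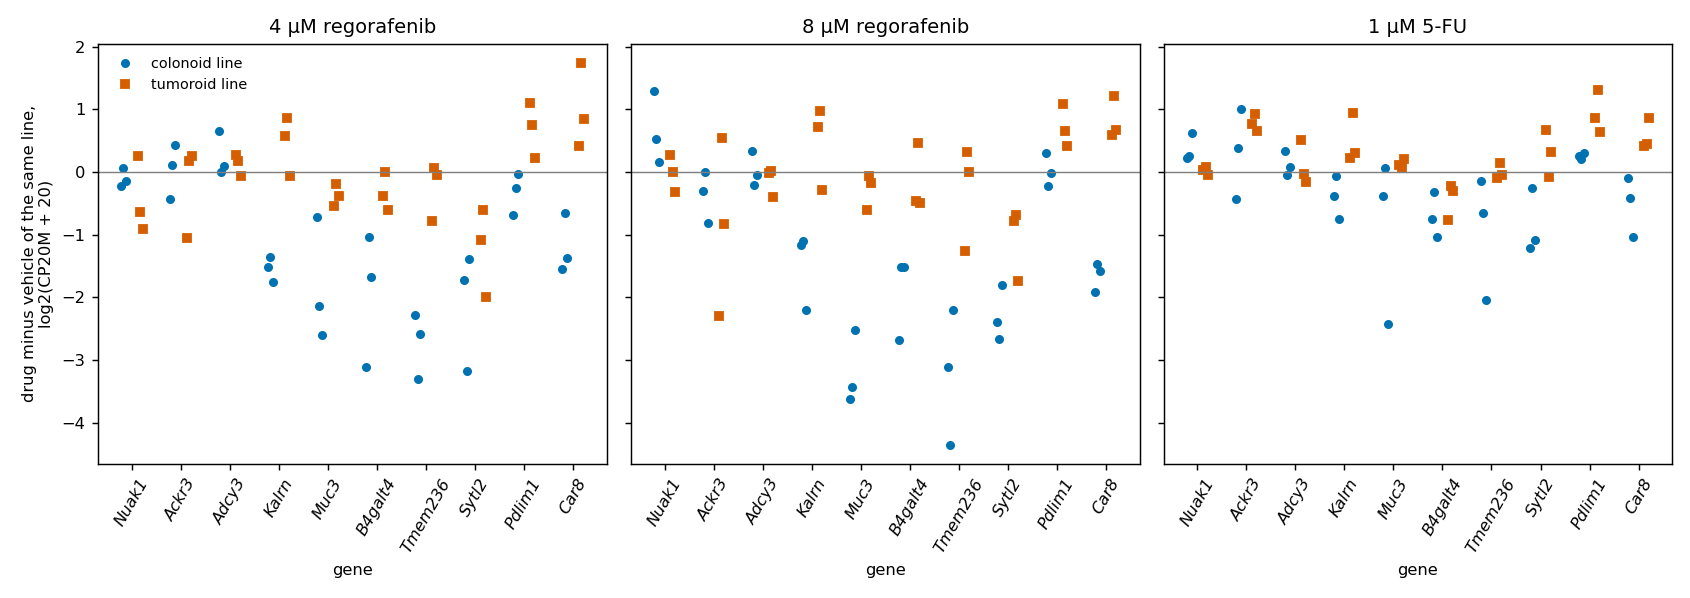
Drug minus vehicle within each line on the log2(CP20M + 20) scale, for colonoid lines (circles) and tumoroid lines (squares). Under both regorafenib doses the colonoid lines of Kalrn, Muc3, B4galt4, Tmem236, Sytl2 and Car8 lie below 0, and the tumoroid lines of Pdlim1 and Car8 lie above it under every drug.

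Line by line, 6 of the 7 genes that were higher in colonoids in vehicle stood below vehicle in all 3 colonoid lines under R4 and under R8. Under R4 the mean colonoid differences were −2.73 ± 0.52 for Tmem236, −2.09 ± 0.95 for Sytl2, −1.94 ± 1.06 for B4galt4, −1.82 ± 0.98 for Muc3, −1.55 ± 0.20 for Kalrn and −1.19 ± 0.47 for Car8 (log2, mean ± SD, n = 3 lines). Pdlim1, the seventh, differed from vehicle by −0.32 ± 0.33 under R4 and 0.02 ± 0.26 under R8 in colonoids. In tumoroids the same genes were already low, and their mean differences under R4 ran from −1.23 ± 0.70 for Sytl2 to 1.00 ± 0.67 for Car8. Car8 stood below vehicle in all 3 colonoid lines and above it in all 3 tumoroid lines under every drug. These vehicle values chose the genes, so the differences from vehicle within a genotype carry no test.

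The summed goblet cell and absorptive colonocyte markers were lower in colonoids under regorafenib, as were 6 of the 7 genes that were higher in colonoids in vehicle, Pdlim1 being the exception. The summed level of 8 goblet cell markers in colonoid lines M41, M40 and M1 was 12762, 19168 and 1578 CP20M in vehicle, 1800, 733 and 101 CP20M under R4 and 68, 197 and 127 CP20M under R8. Under 5-FU it was 4576, 7180 and 129 CP20M, so that line M1 was low there as it was for Muc3 and Tmem236. In tumoroids the sum was between 64 and 468 CP20M in all 12 libraries, and Atoh1 and Zg16 were at 0 in all 3 under R8. Absorptive colonocyte markers (8 genes) summed in colonoids to 28489 to 41171 CP20M in vehicle and 7389 to 10888 CP20M under R8, and in tumoroids to 7683 to 17564 CP20M and 4306 to 5355 CP20M. This sum was mostly Emp1, at 4173 to 24169 CP20M over the organoid libraries, and Car1, at 16 to 15957 CP20M. The same list summed to 3897 to 19931 CP20M in fibroblasts, so the sum is not particular to colonocytes. Car4 was at 0 in every library of 6 of the 8 groups, R4 of both genotypes among them. Enteroendocrine markers (6 genes) summed to 53 to 1500 CP20M in colonoids in vehicle and 46 to 253 CP20M under R8, and tuft cell markers (4 genes) to 94 to 649 and 222 to 283 CP20M. Their part in the result was not tested. By limma no goblet, absorptive, enteroendocrine or tuft cell marker passed between genotypes under any drug. All 6 goblet cell markers tested had an unadjusted p under 0.05 under 5-FU, and 0 of the 6 did under R4 and R8. Under 5-FU 3.76% of all genes passed this as higher and 2.33% as lower in tumoroids. The median gap of the 6 was −2.81 under 5-FU (0.01 for all genes), −1.68 under R4 (0.24) and −0.26 under R8 (0.08). With tumoroid sums of at most 468 CP20M they entered the test mainly through colonoids, so these values are a description. Among 6 Wnt target and stem cell markers tested the Wnt feedback genes Axin2 (log2 difference 2.73, adjusted p = 0.0285) and Znrf3 (1.38, adjusted p = 0.0305) passed under R4. By limma neither passed under R8 (adjusted p = 0.120 for Axin2 and 0.250 for Znrf3) or under 5-FU (0.323 and 0.165). Both were at 430 CP20M in the shallow M41 library under R4, the lowest colonoid value of each.

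**Figure D4:**
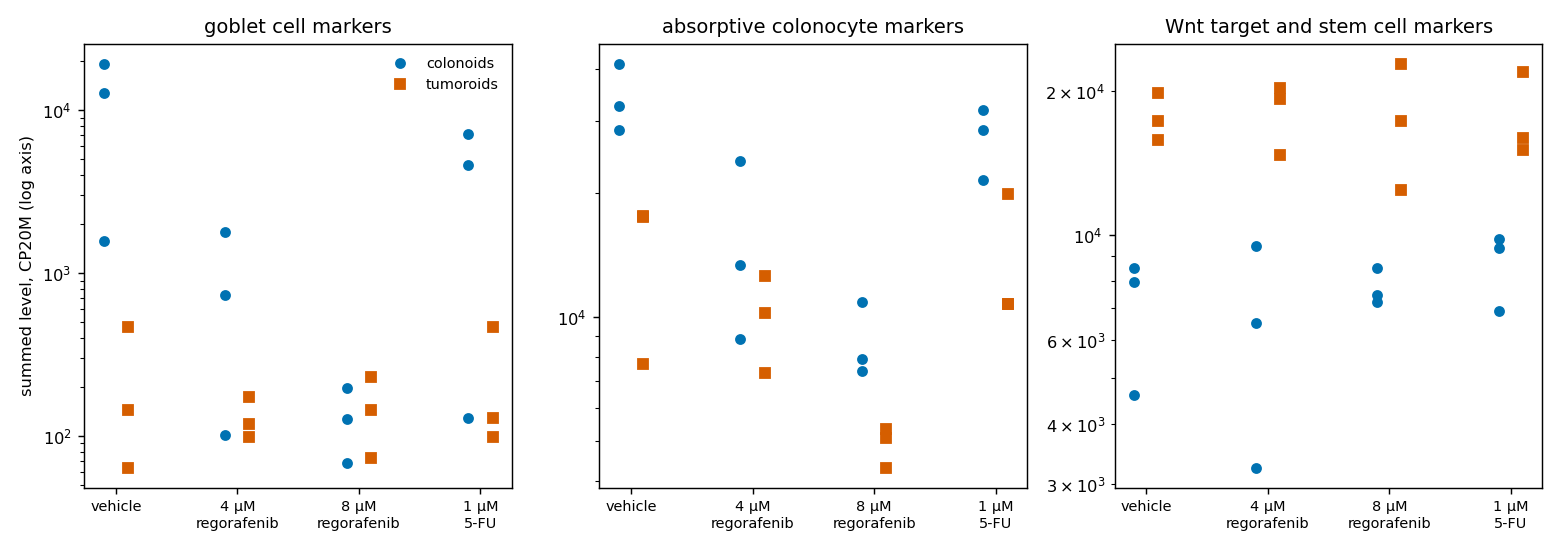
Summed CP20M of 8 goblet cell, 8 absorptive colonocyte and 8 Wnt target and stem cell markers in each library, by genotype and treatment, on log axes. Goblet cell sums of colonoids reach 19168 CP20M in vehicle and at most 197 CP20M under R8, and the Wnt target sums of tumoroids lie above those of colonoids in every treatment.

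The relatives of the 10 genes were counted from lists of their families. Outside the members, 11 AMPK-related kinases, 1 gene of the CXCL12 axis, 2 adenylyl cyclases, 8 Rac exchange factors, 3 transmembrane mucins, 6 galactosyltransferases, 2 genes of the synaptotagmin-like and Rab27 list, 4 PDZ-LIM genes and 6 carbonic anhydrases were tested. Of these, 1 gene passed in 1 comparison. Tiam1, a Rac exchange factor like Kalrn, was at 313, 467 and 610 CP20M in colonoids and 1385, 1745 and 1278 CP20M in tumoroids under R4, with a log2 difference of 1.66 (SE 0.30, limma adjusted p = 0.0329). It lay in the direction opposite to Kalrn, with 1.37 (adjusted p = 0.116) under R8 and 0.61 (adjusted p = 0.846) under 5-FU. The medians of the families lay between −0.31 (adenylyl cyclases) and 1.50 (transmembrane mucins) under R4, where the median of all genes was 0.24. Under R8 they lay between −0.76 and 1.16 beside 0.08, and under 5-FU between −0.38 and 2.01 beside 0.01. The 3 transmembrane mucins thus had a positive median in each treatment, where Muc3 was lower in tumoroids.

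Across the 24 organoid libraries the gene most like each member was named by the correlation of log2(CP20M + 20) over the 11562 genes tested. These libraries share lines and fall into 2 genotypes, so the correlations are a description. Tmem236 was most like Clca1 (Pearson r = 0.96), a secreted product of goblet cells, Muc3 was most like Sult1d1 (r = 0.95) and B4galt4 most like Plcl2 (r = 0.96). Ackr3 and Adcy3 shared 4833427F10Rik (r = 0.92 and 0.91), and Kalrn and Car8 shared Chst11 (r = 0.92 and 0.77), a chondroitin sulfotransferase. For Nuak1 it was Gm11670 (r = 0.94), for Sytl2 AA467197 (r = 0.92) and for Pdlim1 Reps2 (r = 0.90). The value for Car8 was the lowest of the 10.

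In the 19 fibroblast libraries, scaled in a separate table, the members did not follow a single pattern. Ranges over all 19 include the 8 libraries with autogramin-2. Muc3 was at 0 in all 19 libraries, which allows up to 4.68 to 7.56 CP20M per library (3 reads), and Tmem236 was at 0 to 12 CP20M. Kalrn at 592 to 1973 CP20M, Sytl2 at 451 to 1571 CP20M, Pdlim1 at 2289 to 3304 CP20M and Car8 at 398 to 3492 CP20M were well detected there. Nuak1 was at 1551 to 1879 CP20M in 4 vehicle libraries, 2380 to 3714 CP20M in 4 libraries with 4 µM regorafenib and 3636 to 4189 CP20M in 3 libraries with 10 µM. The 3 Nuak1 ranges did not overlap, which is given without a test. Adcy3 was at 414 to 676 CP20M, Ackr3 at 61 to 658 CP20M and B4galt4 at 72 to 284 CP20M.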

How the data were processed

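Bulk RNA of 24 organoid libraries and 19 fibroblast libraries was analysed. Per the labels and the study's methods, the authors trimmed paired-end reads (Trimmomatic 0.36), aligned them to GRCm38 (STAR 2.5.3a) and counted genes (HTSeq 0.9.1). The deposited values are a signal, CP20M: counts scaled to 20000000 per library and rounded up, in 1 table for organoids and 1 for fibroblasts, so no test crosses the tables. The labels and the methods name different library kits, and whether counting used strand is not settled. The steps between low values gave about 4370000 to 19200000 reads per organoid library, 513000 for the colonoid R4 library of line M41, and no estimate in 3 libraries. Because values were rounded up, whole reads were not recovered and no count model was fitted.

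Genes with at least 200 CP20M in at least 2 of the 24 organoid libraries were tested (11562 of 52636). All 10 members passed, 8 of them in at least 2 colonoid libraries and 6 in at least 2 tumoroid libraries. log2(CP20M + 20) was fitted with limma 3.58.1 in R 4.3.3 (moderated, with a trend), with Benjamini-Hochberg adjustment over all genes tested. Comparisons of genotypes and of gaps used the 18 drug-treated libraries, and drug against vehicle, a description for the members, used all 24. A gene was called with an adjusted p under 0.05 and a log2 difference of at least 1 in size between genotypes, or a 1.5-fold change between treatments. In the main fit p-values rest on the spread between lines, each of which is 1 mouse. That fit counts libraries of the same line as independent, so it counts more units than there are mice. Library pairs of a group differed by more than sampling noise, so none was counted as a copy. Libraries of the same line come from the same mouse, and their deviations from group means correlated at a mean of 0.50 (0.01 to 0.89) against −0.25 for different lines, so line was also fitted as a replicate block. For comparisons of genotypes the block was 1 correlation between libraries of a line, taken over all genes. This fit, too, counts more units than there are mice. For gaps and for drug against vehicle it was a coefficient for each line.

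The members, gene lists and markers were chosen with earlier results of these data known. Named genes were the 10 members, family or marker genes that passed a comparison of genotypes under drug, and for each member the gene with the highest Pearson correlation. The titles of 3 tumoroid 5-FU libraries say colonoid, and these libraries were placed by their genotype label. On simulated data with log2 changes of 2, the fit recovered 93.1% of changed genes for R4, 90.2% for R8 and 90.2% for 5-FU. With changes of 1.5 it recovered 73.5%, 59.2% and 68.4%, over 11502 genes. Of the genes called there, 7.22% for R4, 3.85% for R8 and 1.24% for 5-FU were false. Whether the simulation matched the members' levels or the correlation between libraries of a line was not tested. These shares are therefore not the chance of a call for a member. Under R4, Nuak1 (gap 2.19), Ackr3 (2.56) and Adcy3 (2.11) were not called. Alternatives were a pseudocount of 5 CP20M, no filter, TMM factors, other sets of libraries, the replicate block, an FDR of 0.01, and leaving out each line or the shallow library.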

Additional observations from a re-analysis of the deposited data

Results flagged for a closer look

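In fibroblast groups of 4 lines, 4 of 36 sets of values held a line that stood apart from the rest by its gap, where chance gives about 1 in 20. Ackr3 under 4 µM regorafenib with 1 µM autogramin-2 was at 340 CP20M in line M3(2) and 99 to 136 CP20M in the others. Line M3(2) also held the highest Ackr3 value in every other fibroblast treatment. With both drugs, Kalrn was at 637 CP20M in line M11 and 1266 to 1381 CP20M in the others, and Sytl2 was at 1243 CP20M in line M1(2) and 776 to 828 CP20M in the others. Line M11 was the lowest for Kalrn in every treatment in which it was measured. Tmem236 under 4 µM regorafenib was at 12 CP20M in line M3 and 3 CP20M in each of the others, values that stand for few reads.

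In 5 cases every tumoroid line stood on one side of its vehicle level and every colonoid line on the other, and the difference was not tested because the vehicle values chose the genes. For Car8 the tumoroid change minus the colonoid change was 2.19 under R4, 2.48 under R8 and 1.09 under 5-FU on the log2 scale. For Pdlim1 under R4 it was 1.01, from −0.32 in colonoids and 0.69 in tumoroids. For Kalrn under 5-FU it was 0.89, from −0.40 and 0.49.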

How the results depend on the processing

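Of the 550 values of single members under an alternative, 490 kept their direction and side of the threshold, 24 gained a call, 32 lost one and 4 turned sign, all 4 of Car8. Much of this agreement was fixed in advance, since several alternatives leave the log2 difference unchanged and most values were not called in the main fit. The calls between genotypes under 5-FU were lost in 5 alternatives for Kalrn and 6 for B4galt4. Car8 under R8 was −0.02 with TMM factors and −0.20 to 0.27 without single lines, and under R4 −0.66 to 0.15. Genes called between genotypes under R4 (18) were 39 with all 24 libraries, 29 with line as a replicate block, 11 with TMM factors, 6 without the filter, 6 at an FDR of 0.01 and 0 with the 6 libraries of R4 alone. Under R8 (19) they were 144 with its 6 libraries alone, 10 without the filter and 4 at an FDR of 0.01. Under 5-FU (9) they were 16 with 24 libraries, 15 with the block, 5 with TMM factors, 3 at an FDR of 0.01 and 0 with its 6 libraries alone. Members called were 2 under R4 with 24 libraries and 2 with the block, 2 under R8 with its 6 libraries alone and 1 with the block, and under 5-FU 5 with 24 libraries, 4 with the block, 1 at an FDR of 0.01 and 0 with its 6 libraries alone. Leaving out a line or the shallow library gave 1 to 120 genes and 0 to 2 members under R4, 4 to 66 and 0 to 2 under R8, and 1 to 35 and 0 to 5 under 5-FU. The highest counts under R4 (120) and 5-FU (35) came without colonoid line M1, and under R8 (66) without the shallow library. For drug against vehicle, such omissions gave 1096 to 1998 genes and 1 to 3 members under R4, and 24 to 495 genes and 0 to 1 members under 5-FU, where the block gave 584 genes. The pseudocount of 5 CP20M left 1 member called under R4 against vehicle. The cause of these shifts was not tested, and the fits with 24 libraries include the vehicle libraries that chose the members. The planned edgeR tests were not run because whole reads were not recovered. The shallow M41 R4 library limits low genes most, since 3 reads there are 117 CP20M.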
